A study of Homo sapiens with 9 samples.

Results

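RNA sequencing of the human monocytic cell line U937 was used to compare cells expressing the fusion protein ETO2-GLIS2 with cells carrying the empty vector, both after 48 h in doxycycline. Each side is 1 library, so 2 of the 9 libraries of the series make the comparison. The ETO2-GLIS2 cells, labelled as EG over-expressed, are clone #14, a stable line with a retroviral Tet-inducible vector for the HA-tagged fusion. The control cells, labelled WT, are a stable line of the same U937 background that carries the vector without an insert. Both received 5 μg/ml doxycycline, so the drug and the vector are common to both sides and the fusion and the history of the clone are not. The 0 h and 12 h libraries of the same lines were used beside them, and a line with AML1-ETO appears only as a reference value. With 1 clone and 1 library on each side nothing is replicated, and differences carry no p-value. A property of the clone and an effect of the fusion cannot be told apart.

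ETO2, the product of CBFA2T3, is a corepressor of the ETO family that is brought to DNA by other transcription factors and carries histone deacetylase complexes with it. GLIS2 is a zinc finger transcription factor that recognises a G-rich sequence. The fusion joins the ETO2 part that binds partners to the zinc fingers of GLIS2, and is known from aggressive childhood leukaemias of the megakaryocytic lineage. U937 cells are instead of the monocytic lineage, in which PU.1, C/EBP factors and IRF8 direct the genes of monocytes and macrophages.

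Levels are FPKM, or read counts per gene relative to its exon length and to the library total. The difference is log2 of (ETO2-GLIS2 + 0.1)/(empty vector + 0.1), which understates the change of genes with low values. Of 60623 genes, 12035 had a mean FPKM of at least 1 over both 48 h libraries and were compared. Past 2-fold, 463 were higher and 282 were lower in the ETO2-GLIS2 library. Of these, 138 and 79 had already passed 2-fold on the same side at 0 h and were set aside. That left 325 genes called higher, 2.70% of those compared, and 203 called lower, 1.69%. At 0 h, before any doxycycline, 480 of the same 12035 genes were past 2-fold higher in the ETO2-GLIS2 line and 385 were lower. The SD of the difference over these genes was 0.68 at 0 h and 0.66 at 48 h. The filter used the 48 h levels only, so genes low at 0 h stay in, and the 0 h and 48 h values are not on equal terms. The median difference at 48 h was 0.03.

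The steps between low FPKM values gave library totals of 16357913 reads on genes for ETO2-GLIS2 and 15391975 for the empty vector. Whole reads could be recovered for 95.1% of the genes compared, and summed to 10969631 and 10126503, so that some abundant genes are without an interval. Over all 9 libraries the totals lay between 15136398 and 18443639. Brackets after a log2 difference give its exact 95% Clopper-Pearson counting interval, computed without the pseudocount. The intervals cover counting error only, and not the spread between cultures or clones. Of the called genes the interval lay wholly past 2-fold for 61 of the genes called higher and 31 of the genes called lower. Fewer cells of a kind and less RNA per cell cannot be told apart in bulk RNA.

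**Figure D1:**
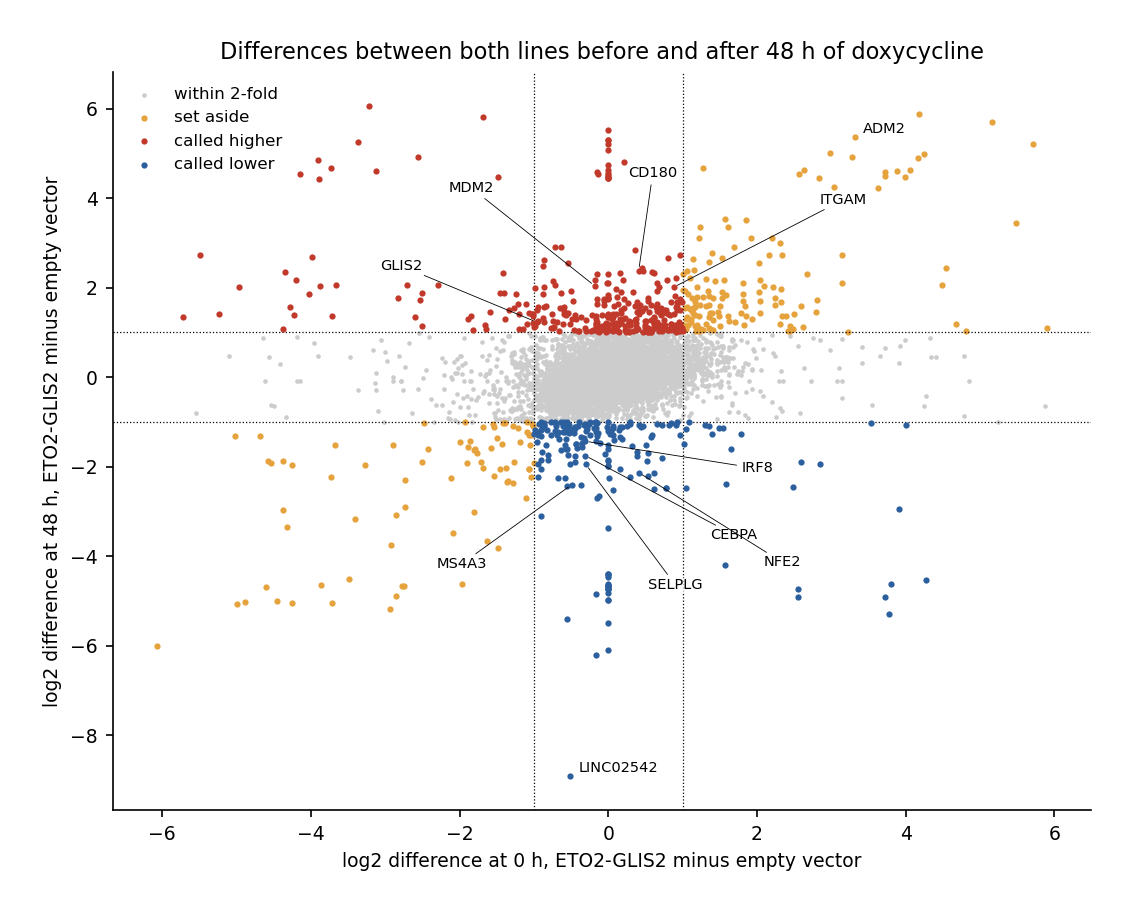
Each point is 1 of the 12035 genes, with the log2 difference between the ETO2-GLIS2 and empty vector lines at 0 h on the x axis and at 48 h on the y axis. Dotted lines mark 2-fold. The 325 red and 203 blue genes are called, and the 217 orange genes had passed 2-fold on the same side before induction.

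The genes whose sequence the construct carries were both called higher. CBFA2T3 had 4.1, 11.4 and 12.6 FPKM at 0, 12 and 48 h in the ETO2-GLIS2 line, against 4.75, 6.38 and 6 FPKM in the empty vector line. GLIS2 had 2.39, 6.79 and 8.85 FPKM against 4.76, 3.64 and 3.72 FPKM. At 0 h both genes were lower in the line that carries the construct, and at 12 and 48 h both were higher. The log2 difference at 48 h was 1.06 (0.93 to 1.22) for CBFA2T3 and 1.23 (1.04 to 1.46) for GLIS2. Reads of the construct and of the cell's own genes are counted together, and 23.5% of the exon bases of GLIS2 overlap an exon on the opposite strand, which this kit does not tell apart. The other ETO family genes and corepressors moved little, with 0 of 9 called and differences from -0.33 to 0.05. RUNX1T1, which encodes ETO itself, was listed at 0 in the ETO2-GLIS2 library.

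The label of a monocytic line was borne out by most of its markers. Of 15 identity genes 13 reached the filter of 1 FPKM on the mean. None of the 13 was called in either direction, with a median difference of 0.13, which compares both lines and does not bear on the label. SPI1, which encodes PU.1, had 80.9 FPKM in the ETO2-GLIS2 library and 97.3 FPKM in the empty vector library. ITGB2, the beta subunit of the leukocyte integrins, had 448 and 408 FPKM. MPO, a myeloid granule enzyme, was below the filter at 0.78 and 0.663 FPKM. CD68, a macrophage lysosomal protein, was at 0.0283 and 0 FPKM, and 81.6% of its exon bases overlap another gene on its strand. Most defining markers of other cell types were at or near 0. Of 10 epithelial and fibroblast markers 0 reached the filter, with summed levels of 0.0474 and 0.159 FPKM. Of 14 erythroid markers only EPOR did, at 2.52 and 2.47 FPKM, and 10 were at 0 in both 48 h libraries, the globins HBA1 and HBB among them. Of 12 lymphoid markers 4 reached it, with summed levels of 80.4 and 95.4 FPKM, of which NKG7, a granule protein of cytotoxic cells, made up 73.3 and 89.9 FPKM. PAX5, a B cell transcription factor, had 1.13 and 1.19 FPKM, and CD79A, a B cell receptor chain, was set aside at 3.78 and 1.04 FPKM. CD3D, CD3E and MS4A1 were at 0. The part of such markers in the results below was not tested.

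MDM2 had the largest difference among protein-coding genes called higher with a mean of at least 5 FPKM. It encodes the ubiquitin ligase that limits p53, and lies on chromosome 12 from 68808172 to 68850686 (GRCh38.p14). Its level was 2.48, 8.43 and 11.2 FPKM at 0, 12 and 48 h in the ETO2-GLIS2 line, against 2.82, 2.93 and 2.64 FPKM in the empty vector line. The ETO2-GLIS2 library at 0 h and all empty vector libraries lay between 2.48 and 2.93 FPKM, and both induced ETO2-GLIS2 libraries stood above all of them. The log2 difference at 48 h was 2.04 (1.95 to 2.22), from 2464 and 547 reads. In the AML1-ETO line MDM2 had 2.13 FPKM at 48 h. Among genes described below, that line at 48 h had SUCNR1 at 55.9, MT2A at 450, CEBPA at 6.62 and SELPLG at 0.0527 FPKM. These lay on the same side of the empty vector as with ETO2-GLIS2, and further from it. ITGAM, at 0.832 FPKM, and CD38, at 0.173 FPKM, lay on the other side. The other p53 targets did not follow MDM2. Of 13 compared, only MDM2 and GADD45A, a stress-induced growth arrest gene with a log2 difference of 1.03 (0.44 to 1.82), were called, and the median was 0.07. CDKN1A, the p21 cell cycle inhibitor, had 24.1 and 25.2 FPKM, and BAX, a pro-apoptotic BCL2 family gene, had 14.9 and 15.9 FPKM.

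Both leukocyte integrin alpha chains of chromosome 16 that mark myeloid maturation were higher. ITGAM, which encodes CD11b and lies from 31259975 to 31332877, had 2.23, 4.56 and 11.5 FPKM in the ETO2-GLIS2 line, against 1.17, 1.96 and 2.78 FPKM in the empty vector line. Its level climbed in both lines and was higher in the ETO2-GLIS2 line at every time, with log2 differences of 0.88, 1.18 and 2.01 (1.84 to 2.25). ITGAX, which encodes CD11c and lies from 31355176 to 31382999, had 2.82, 3.57 and 10.7 FPKM against 2.17, 2.67 and 3.5 FPKM. Its difference was 0.36 at 0 h and 0.41 at 12 h, and 1.59 (1.45 to 1.78) at 48 h. Their partner ITGB2 was within 2-fold, as was ITGAL, the alpha chain of LFA-1, at 26.8 and 23.8 FPKM. The wider list of monocyte and macrophage surface genes did not move as a whole. Of 35 compared, ITGAM and ITGAX were called higher and SELPLG and LILRA1 lower, and the median was 0.16. TLR2, a receptor for bacterial lipoproteins, was set aside, with 3.68 against 0.742 FPKM already at 0 h. CD14, the coreceptor for lipopolysaccharide, had 0.0371 FPKM in the ETO2-GLIS2 library and was listed at 0 in the other.

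Other membrane and signalling genes were higher in the ETO2-GLIS2 library. SUCNR1, the receptor for extracellular succinate, had 15.4, 22.3 and 34.9 FPKM against 7.72, 8.91 and 10.8 FPKM, and lay just under 2-fold at 0 h with a log2 difference of 0.99. At 48 h its difference was 1.68 (1.57 to 1.82). ADD3, a subunit of the adducin membrane skeleton, had 7.19, 9.44 and 15.8 FPKM against 3.73, 4.41 and 4.82 FPKM and was likewise near the limit at 0 h. For these genes most of the difference was present before induction.

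A further group was alike in both lines at 0 h and apart at 48 h. ARHGEF3, a guanine nucleotide exchange factor, had 2.52, 6.63 and 17.8 FPKM against 1.87, 5.41 and 6.63 FPKM, a difference of 1.41 (1.3 to 1.56). CD38, an NAD glycohydrolase at the surface of maturing leukocytes, had 2.17, 6.2 and 8.91 FPKM against 1.78, 4.92 and 3.75 FPKM, a difference of 1.23 (1.08 to 1.42). CACNA2D4, a calcium channel subunit, had 2.19, 3.81 and 10.7 FPKM against 1.85, 3.58 and 4.23 FPKM. All 3 climbed in the empty vector line too, and at 12 h their differences were still between 0.09 and 0.33. NLRC3, an inhibitor of innate immune signalling, had 10.4 and 4.44 FPKM at 48 h, and its level in the empty vector line was 6.99 FPKM at 12 h. FAM49A, a regulator of the actin cytoskeleton now named CYRIA, had 8.45 and 3.66 FPKM.

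Several abundant genes completed the leading group. MT2A, a metal-binding metallothionein, had 38.1, 68.3 and 261 FPKM against 20.7, 41.6 and 123 FPKM, a difference of 1.08 (1 to 1.17) that was 0.88 before induction. TXNIP, a thioredoxin-binding arrestin that restrains glucose uptake, had 33.6, 35.8 and 47.6 FPKM against 20.4, 30.5 and 22.5 FPKM. Its difference was 0.72 before induction and 1.08 at 48 h. ZNF117, a zinc finger gene beside an endogenous retrovirus, had 14.6, 20.3 and 59.6 FPKM against 9.46, 20.9 and 26 FPKM, and was even between the lines at 12 h. MXD4, an antagonist of MYC, had 16.8 and 6.99 FPKM. SLC44A2, a choline transporter, had 7.81 and 3.25 FPKM. The difference in SLC44A2 came with a fall in the empty vector line from 5.18 FPKM at 0 h.

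**Figure D2:**
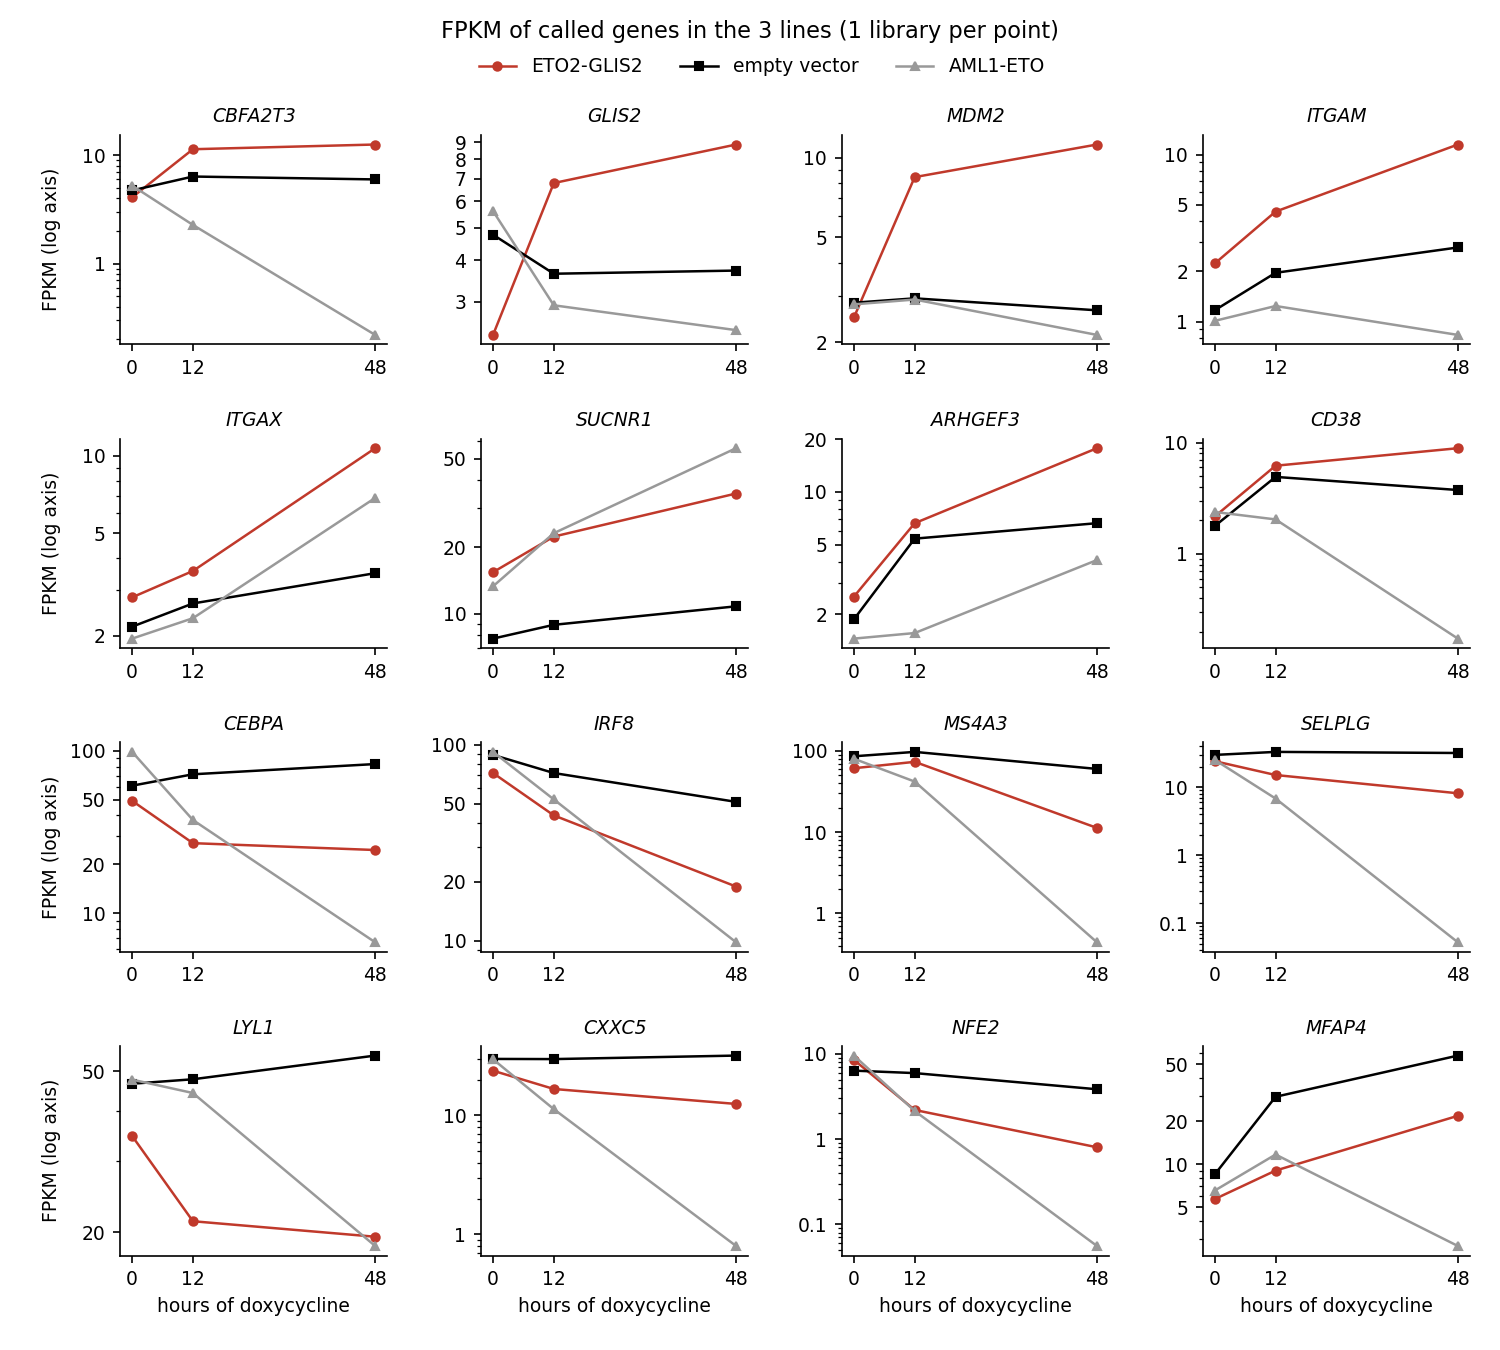
FPKM on a log axis against hours of doxycycline for 16 called genes, with 1 library per point, in the ETO2-GLIS2 line (red circles), the empty vector line (black squares) and the AML1-ETO line (grey triangles). MDM2 stays between 2.64 and 2.93 FPKM in the empty vector line and reaches 11.2 FPKM with ETO2-GLIS2, while CEBPA is 82.9 and 24.5 FPKM at 48 h.

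Further genes called higher had lower levels, with smaller counts behind them. CD180, a Toll-like receptor homologue, had 6.28, 11.2 and 4.47 FPKM against 4.71, 4.52 and 0.779 FPKM, so that its difference of 2.38 (2.15 to 2.91) came with a fall in the empty vector line. FCER2, the low-affinity IgE receptor CD23, had 0.42, 1.35 and 2.47 FPKM against 0.276, 0.297 and 0.398 FPKM, a difference of 2.37 (1.84 to 3.53). IL4I1, a secreted amino acid oxidase, had 0.695, 1.46 and 2.7 FPKM against 0.591, 0.371 and 0.521 FPKM, a difference of 2.17 (1.68 to 3.14). FCER2 and IL4I1 were near-flat in the empty vector line and higher at 12 h as well, with differences of 1.87 and 1.73. LAMB3, a laminin chain, had 4.97 and 1.23 FPKM at 48 h. LY96, the partner of TLR4, had 7.11 and 3.25 FPKM, and C3AR1, the receptor for complement C3a, had 3.05 and 1.43 FPKM. The genes of this paragraph were chosen for description after their values were seen.

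The interferon-stimulated genes lay on the higher side almost without exception. Of 27 compared, 26 were above 0 at 48 h, where 53.2% of all genes were, and their median difference was 0.78 against 0.03 over all genes. The same 27 genes had medians of 0.46 at 0 h and 0.43 at 12 h, and 23 of them were above 0 at 0 h. Only OAS1 and IFI35 were called. OAS1, a sensor of double-stranded RNA, had 1.42, 1.57 and 3.6 FPKM against 0.697, 0.682 and 1.2 FPKM, a difference of 1.51 (1.24 to 1.95). IFI35 had 2.75, 4.73 and 6.72 FPKM against 1.59, 1.84 and 2.73 FPKM, a difference of 1.27 (0.93 to 1.68). IFI6, SAMD9 and SAMD9L were set aside, and IFI6 had 66.9 against 19.3 FPKM at 0 h. IRF7, the factor that amplifies interferon production, had 12.3 and 6.29 FPKM, just within 2-fold. Among 17 cytokines and chemokines, the death ligand gene TNFSF10, at 1.63 and 0.51 FPKM, and CXCL16, at 1.93 and 0.651 FPKM, were called. CCL2, the monocyte chemoattractant, had 0.137, 1.24 and 2.59 FPKM against 0, 0.0665 and 0.164 FPKM, and was set aside on the strength of its 0.137 FPKM at 0 h.

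A few small lists held between 1 and 4 called members. NCF1, the p47phox subunit of the NADPH oxidase, had 0.693, 3.63 and 6.56 FPKM against 0.401, 1.65 and 2.05 FPKM, a difference of 1.63 (1.37 to 2). Its near-identical copy NCF1B had 12.9 and 4.13 FPKM, so the share of each in these reads is uncertain. The other 5 oxidase genes were within 2-fold, from 0.04 to 0.84. The histone genes HIST1H2BK, HIST1H2BD and HIST2H2BE were called higher, at 26.2 and 8.7, 3.3 and 1.42, and 2.37 and 1.01 FPKM. The linker histone gene HIST1H1C was called lower, at 1.14 and 3.04 FPKM. HIST1H2BK had 19.8 against 10.5 FPKM at 0 h, a difference of 0.91 beside 1.58 at 48 h. FOS and EGR1, immediate early transcription factors, were called at 8.65 against 3.98 and 2.03 against 0.683 FPKM. Both had been far higher at 0 h, with 69 and 73.1 FPKM for FOS and 19.6 and 40.9 FPKM for EGR1, so the call compares how far each line came down. CDKN1C, the p57 cell cycle inhibitor, had 0.0219, 0.361 and 1.73 FPKM against 0.0496, 0.347 and 0.787 FPKM.

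Promoter sequence is shown for genes that carry these results, as 300 bases from 250 before to 50 after the RefSeq start (GRCh38.p14), with matches in capitals and positions counted from the start. Where RefSeq lists several starts for a gene, as for MDM2 and TMIGD3, only the first listed was searched. The GLIS core TGGGGGGT was searched on both strands in the promoters of the 8457 compared genes that had one in the table, 104 of them called higher and 51 called lower. It was found in 1.03% of all promoters, in 3 of the higher genes (2.88%) and in 0 of the lower genes. The GLI core GACCACCCA, which the related GLI factors bind, was in 0.248% of all promoters and in 0 of the called genes. The 3 higher genes with a GLIS core are MDM2, with the match at -130, IL4I1, with the match at 23, and TMIGD3, an immunoglobulin domain gene with 5.06 and 2.35 FPKM, with the match at -100. In all 3 the core reads on the opposite strand, as ACCCCCCA. The other capitals, CAGCTG at -121 in IL4I1 and CAGTTG at -18 and -1 in TMIGD3, are matches to the E-box CANCTG described below.
MDM2, chr12:68807922-68808221, plus strand: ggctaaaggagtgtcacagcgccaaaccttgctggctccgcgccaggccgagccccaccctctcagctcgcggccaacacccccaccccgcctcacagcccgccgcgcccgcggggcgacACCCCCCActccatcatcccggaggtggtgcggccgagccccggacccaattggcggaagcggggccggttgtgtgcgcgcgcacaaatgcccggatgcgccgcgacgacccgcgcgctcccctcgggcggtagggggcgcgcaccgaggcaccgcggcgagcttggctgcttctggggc
IL4I1, chr19:49929455-49929754, minus strand: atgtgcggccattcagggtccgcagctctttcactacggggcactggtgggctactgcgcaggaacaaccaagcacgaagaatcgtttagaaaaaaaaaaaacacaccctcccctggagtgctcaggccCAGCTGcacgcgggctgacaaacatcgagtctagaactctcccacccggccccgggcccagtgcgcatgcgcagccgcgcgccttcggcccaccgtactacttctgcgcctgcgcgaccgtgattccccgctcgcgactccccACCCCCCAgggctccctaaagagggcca
TMIGD3, chr1:111563913-111564212, minus strand: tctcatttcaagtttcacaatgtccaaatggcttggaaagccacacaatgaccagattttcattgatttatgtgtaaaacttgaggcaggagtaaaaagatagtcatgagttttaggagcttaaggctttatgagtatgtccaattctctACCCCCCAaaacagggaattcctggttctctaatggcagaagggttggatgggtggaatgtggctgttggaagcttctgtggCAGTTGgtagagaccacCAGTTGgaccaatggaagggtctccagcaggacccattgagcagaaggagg

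The other motifs were searched after the data had been seen. The PU.1 site GAGGAAGT was in 2.77% of all promoters, in 2.88% of those of higher genes and in 0 of those of lower genes. The RUNX core TGTGGT, which AML1 binds, was in 9.08%, 12.5% and 11.8%. The E-box CANCTG, bound by the E proteins that partner ETO2, was in 42.1%, 58.7% and 37.3%. The promoter of ITGAM is shown because ITGAM was among the largest differences, and holds a RUNX core at 25. A match is a run of letters and not a measured site.
ITGAM, chr16:31259725-31260024, plus strand: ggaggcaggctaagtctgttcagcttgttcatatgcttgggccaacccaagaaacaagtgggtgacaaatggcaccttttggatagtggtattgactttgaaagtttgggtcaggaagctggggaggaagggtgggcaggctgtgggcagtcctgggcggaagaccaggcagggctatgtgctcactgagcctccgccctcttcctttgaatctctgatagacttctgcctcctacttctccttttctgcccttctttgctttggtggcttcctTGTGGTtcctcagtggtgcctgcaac

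The genes called lower included the myeloid transcription factors CEBPA and IRF8. CEBPA, the factor that drives granulocyte and monocyte commitment, lies on chromosome 19 from 33299934 to 33302534. It had 49.2, 27 and 24.5 FPKM in the ETO2-GLIS2 line, against 61, 71.7 and 82.9 FPKM in the empty vector line. The level went down in one line and up in the other, and the difference went from -0.31 at 0 h to -1.4 at 12 h and -1.75 (-1.86 to -1.66) at 48 h. Of its exon bases 43.9% overlap an exon on the opposite strand. IRF8, which directs monocyte and dendritic cell development, had 71.7, 43.6 and 18.9 FPKM against 88.7, 71.7 and 51.1 FPKM, so that it went down in both lines and further with ETO2-GLIS2, to a difference of -1.43 (-1.52 to -1.35). Of 38 myeloid transcription factors compared, these were the 2 called, and 1 was set aside. Over all genes compared 1.69% were called lower. Above 0 were 14 of the 38, where 53.2% of all genes were, and the median was -0.13.

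Other regulators were lower as well. LYL1, a bHLH partner of the E proteins in haematopoietic cells, had 34.6, 21.3 and 19.5 FPKM against 46.6, 47.8 and 54.7 FPKM, a difference of -1.49 (-1.6 to -1.38). NFE2, a bZIP factor of the megakaryocyte and erythroid lineages, had 8.51, 2.2 and 0.802 FPKM against 6.37, 5.96 and 3.85 FPKM. NFE2 was higher in the ETO2-GLIS2 line at 0 h and lower at 12 and 48 h, and its difference at 48 h was -2.13 (-2.87 to -1.69). CITED4, a coactivator that binds CBP and p300, had 19.8, 11.5 and 8.68 FPKM against 28.5, 48 and 33.3 FPKM. CXXC5, a CXXC zinc finger regulator of WNT and other signals, had 23.8, 16.7 and 12.5 FPKM against 29.9, 29.8 and 31.9 FPKM. LYL1, CITED4 and CXXC5 were nearly level or higher in the empty vector line while they went down with ETO2-GLIS2.

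The largest differences among protein-coding genes called lower were in VIT and MS4A3. MS4A3, a membrane protein of granulocyte and monocyte progenitors, had 61.3, 73.5 and 11.3 FPKM against 86, 97.4 and 60.1 FPKM, a difference of -2.4 (-2.57 to -2.25) that had been -0.49 and -0.41 at the earlier times. VIT, an extracellular matrix protein, had 9.75, 12.6 and 2.85 FPKM against 12.6, 18.5 and 15.5 FPKM. Both were thus late, with little difference at 12 h. SELPLG, the P-selectin ligand PSGL-1, had 24.1, 15.1 and 8.14 FPKM against 29.8, 33 and 31.8 FPKM, a difference of -1.95 (-2.14 to -1.79) that was -1.13 at 12 h. PLAC8, a gene of myeloid and lymphoid cells, had 3.74 and 10.5 FPKM at 48 h, after 26 and 28 FPKM at 0 h. PRAM1, an adaptor protein of myeloid cells, and MFAP4, a matrix glycoprotein, climbed in the empty vector line and less or not at all with ETO2-GLIS2. PRAM1 had 23.4, 21.8 and 22.9 FPKM against 27.9, 43.4 and 55.7 FPKM. MFAP4 had 5.72, 9.04 and 21.8 FPKM against 8.51, 29.6 and 57.4 FPKM. Lower by smaller counts were MARCO, a macrophage scavenger receptor, at 0.735 and 2.66 FPKM, and FCN1, the monocyte lectin ficolin, at 0.806 and 2.3 FPKM.

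Among metabolic and mitochondrial genes of nuclear origin, CHCHD10, a protein of the mitochondrial intermembrane space, had 7.57, 7.03 and 7.96 FPKM against 13.7, 21.3 and 23 FPKM. MRPS18A, a protein of the mitochondrial ribosome, had 5.33 and 13.1 FPKM, and was close to 2-fold lower at all times, with -0.94, -1.02 and -1.28 (-1.62 to -0.97). Of its exon bases 50.9% overlap an exon on the opposite strand. CHAC2, which degrades glutathione, had 3.6 and 8.78 FPKM, and CDC42EP4, an effector of CDC42, had 3.25 and 8.93 FPKM.

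The DNA replication genes were all on the lower side. Of 39 compared, 0 were above 0 at 48 h, where 53.2% of all genes were. Their differences ran from -1.08 to -0.18 with a median of -0.48. The median had been -0.4 at 0 h and -0.26 at 12 h, and 8 of the 39 were above 0 at 0 h. CDT1, which licenses replication origins, and MCM3, a subunit of the replicative helicase, were the 2 called. CDT1 had 28.2, 27.6 and 17.8 FPKM against 52.3, 53.3 and 37.7 FPKM. MCM3 had 59.7, 77.6 and 35.4 FPKM against 109, 117 and 72.5 FPKM. The difference of MCM3 was -1.03 at 48 h and -0.87 at 0 h, so it crossed the limit by a small step. E2F1, which drives entry into S phase, had 13.5, 18.6 and 7.59 FPKM against 18.6, 27.7 and 17.1 FPKM, a difference of -1.17 (-1.37 to -0.99). Of 30 mitosis genes 0 were called, 6 were above 0, and the median was -0.12. The difference between both lists was not tested.

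Most transcripts of the mitochondrial genome were lower at 48 h, with 2 of 15 above 0, where 10 had been above 0 at 0 h. Their median difference was 0.15 at 0 h, 0.08 at 12 h and -0.67 at 48 h. Their summed level at 48 h was 28900 FPKM with ETO2-GLIS2 and 38600 FPKM with the empty vector. At 0 h the sums were 62400 and 60900 FPKM, so the summed level went down in both lines and further with ETO2-GLIS2. MT-ND3 and MT-ND4L, subunits of complex I, were called lower. MT-ND3 had 1410, 1030 and 634 FPKM against 1230, 843 and 1380 FPKM, and was lower at 48 h only. MT-ND4L had 1770, 750 and 495 FPKM against 3220, 1090 and 1060 FPKM, and was lower at every time, with differences of -0.86, -0.53 and -1.10. MT-CO3, a subunit of cytochrome c oxidase, had 3340 and 6640 FPKM, a difference of -0.99, just outside. The ribosomal RNA genes went the other way, with MT-RNR2 at 6660 and 2450 FPKM and set aside for its difference at 0 h. Because FPKM is relative to the library total, these abundant genes bear on all other values. With them left out of the totals, 348 genes were higher and 177 lower.

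The largest difference of all was in a noncoding gene of the control line. LINC02542, a long noncoding RNA on chromosome 6 from 81843781 to 82101765, had 0.0426, 48.7 and 69.1 FPKM in the empty vector line and 0, 0.0194 and 0.0423 FPKM with ETO2-GLIS2. It was thus high in both induced empty vector libraries and near 0 in the ETO2-GLIS2 line at all times, and the AML1-ETO line had 0.0228 FPKM at 48 h. The log2 difference was -8.92 (-13.72 to -8.82), from 2 and 3070 reads. Of the genes called higher 112 (34.5%) and of those called lower 55 (27.1%) are protein coding. Small RNAs made up 62 and 55, long noncoding RNAs 74 and 42, and pseudogenes 64 and 42. The shares of these types over all genes compared are not given here, so the counts show no excess or lack of a type. Small RNAs are poorly captured by this kind of library, and their FPKM rests on few reads. MIR3685 and MIR4740 had 10 and 2 reads each, and their interval, 0 to 5.46, reaches no difference. A Y RNA (identifier ENSG00000252915) had 22 and 3 reads. MTND2P28, a nuclear pseudogene of a mitochondrial gene, had 156, 118 and 65.9 FPKM against 201, 161 and 167 FPKM. AC055876.1, a pseudogene with 2.98 and 12.7 FPKM at 48 h, shares 99.3% of its exon bases with another gene on its strand. With a mean of at least 5 FPKM there were 57 higher and 47 lower genes, of which 35 and 30 are protein coding.

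The 12 h libraries, which were not used to make the calls, gave the same direction for most protein-coding genes. Of the 112 higher genes 95 (84.8%) were above 0 at 12 h, where 45.1% of all compared genes were. Of the 55 lower genes 48 (87.3%) were below 0, where 54.5% of all were. The lines are the same at both times, and the median difference of these genes at 0 h was already 0.44 and -0.41. Past 2-fold on the same side at 12 h were 17 of the 112 and 17 of the 55, against backgrounds of 2.91% and 3.98%. MDM2, ITGAM, SUCNR1, FCER2 and IL4I1 were among the former and CEBPA, SELPLG, NFE2, LYL1, CITED4 and MFAP4 among the latter. Agreement was weaker with noncoding genes included. Over all 325 higher genes 182 (56.0%) were above 0 at 12 h, 51 (15.7%) were past 2-fold higher and 48 were past 2-fold lower. Over all 203 lower genes 139 (68.5%) were below 0, 62 (30.5%) were past 2-fold lower and 19 higher. XAGE1A, a cancer testis antigen gene with near-identical copies, was the most discordant protein-coding gene, with 13.9 against 0.633 FPKM at 12 h and 0.781 against 1.73 FPKM at 48 h.

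Each line was also set against its own 0 h. Of the 112 higher protein-coding genes, 37 were past 2-fold up in the ETO2-GLIS2 line with the empty vector line within 2-fold, MDM2 among them. In 21 both lines were past 2-fold up, as for ITGAM and ARHGEF3, and in 44 neither was. In 8 only the empty vector line moved, downwards, as for CD180, and in 2, FOS and EGR1, both went down. Of the 55 lower genes, 14 were past 2-fold down in the ETO2-GLIS2 line only, IRF8 and MS4A3 among them. In 7 both went down, as for PLAC8, in 30 neither passed 2-fold, as for LYL1, in 3 only the empty vector line went up, and in 1, MFAP4, both went up.

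The genes set aside differed between the lines before induction. ADM2, a peptide hormone of the calcitonin family, had 0.898, 3.04 and 10.3 FPKM against 0, 0.0924 and 0.151 FPKM, the largest 48 h difference among set-aside genes with a mean of at least 5 FPKM, at 5.36 (5.19 to 7.15), and a difference of 3.32 at 0 h. CNR2, the cannabinoid receptor of immune cells, had 5.9, 12.9 and 26.7 FPKM against 1.97, 6.01 and 7.02 FPKM. GAPT, a B cell adaptor, CD101, an inhibitory surface receptor, and CAMP, the antimicrobial cathelicidin, had 48 h differences of 1.93, 1.94 and 1.91. CD101 had a difference of 1 at 0 h and SUCNR1 one of 0.99, so the limit parted genes of nearly equal standing. Set aside as lower were RN7SL1, the RNA of the signal recognition particle, with 7.62, 7.48 and 7.97 FPKM against 58.4, 56.1 and 108 FPKM, and PNMA6E, AL139396.1, MIR25 and RNU7-20P.

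Just inside the limit on the higher side were LIG4, a DNA ligase of end joining, TNFSF14, the cytokine LIGHT, and ECM1, an extracellular matrix protein, at 1.01, 1.03 and 1.03. Just outside were RNA5SP217, CBX3P9 and a Y RNA, at 1, 1 and 0.99. On the lower side XRCC2, a recombination gene, MIR4720 and RPS10P3 lay inside at -1.01, and AC010343.1, MT-CO3 and MCM5 outside at -1, -0.99 and -0.96. The difference of XRCC2 was already -0.91 at 0 h.

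SPI1, CEBPB and RHOU, genes of myeloid differentiation and migration followed in the study, lay within 2-fold at 48 h. SPI1 had 88, 76.8 and 80.9 FPKM with ETO2-GLIS2 and 67, 76.9 and 97.3 FPKM with the empty vector, a difference of -0.27 at 48 h. CEBPB, the C/EBP factor of macrophages, had 20.6, 19.3 and 36.4 FPKM against 21, 42.1 and 50.3 FPKM, so that it was 2-fold lower at 12 h, at -1.12, and at -0.46 (-0.58 to -0.35) at 48 h. RHOU, an atypical small GTPase, had 32.8, 45.6 and 73.9 FPKM against 24.2, 33 and 44.3 FPKM, and its difference of 0.74 (0.67 to 0.81) at 48 h stood at 0.44 before induction.

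Genes that mark the leukaemia with this fusion were mostly at or near 0. Of 20 such genes 3 reached the filter, and 9 were at 0 in both libraries, FOLR1 and GATA3 among them. NCAM1, which encodes CD56, was set aside as lower, with 0.153, 0.202 and 0.331 FPKM against 1.58, 2.09 and 2.03 FPKM. ID1 and ID2, inhibitors of bHLH factors, differed by -0.51 and 0.32. Of 26 megakaryocyte and platelet genes 5 reached it, with NFE2 called lower and RAB27B, a GTPase of granule release, set aside as higher at 19.3 and 5.59 FPKM. PF4 and GP9 were at 0. Of 18 hedgehog and GLI-family genes 5 were compared and 0 called. GAS1, a hedgehog coreceptor, was set aside as lower at 0.778 and 1.94 FPKM, and PTCH1, a target of GLI factors, had 1.26 and 1.7 FPKM.

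Over 49 gene lists, 28 had members compared and none called. Over all genes compared, 2.70% were called higher, 1.69% were called lower and 53.2% were above 0 at 48 h. Of the 42 lists with 5 or more members compared, 37 had a median within 0.3 of 0, and 2 had a median beyond 0.5 in size, the interferon-stimulated genes and the genes of the mitochondrial genome. Ribosome biogenesis factors had a median of -0.33 and 3 of 30 above 0. Cytosolic ribosomal proteins had a median of 0.42 at 0 h and -0.11 at 48 h, with RPS10 called. RPS10 had 2.47 and 0.988 FPKM, and shares 31.5% of its exon bases with another gene on its strand. Housekeeping controls had a median of 0.02. Lists are described by counts and medians only, and nothing in them was tested.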

How the data were processed

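RNA of 9 U937 libraries (3 lines at 0, 12 and 48 h, 1 library each) was prepared with a TruSeq kit that does not mark strand and sequenced on a NovaSeq. The authors used HISAT2 2.0.5 for alignment to hg38, SAMtools 1.7 for sorting and, for counts per gene, HTSeq 0.9.1 at default settings, and deposited FPKM values for 60623 genes. The annotation version is not given in the sources used here. From these values the log2 difference was computed with a pseudocount of 0.1 for genes with a mean of at least 1 FPKM over both 48 h libraries, and genes that had passed 2-fold on the same side at 0 h were set aside. Low values fall on steps of a single read, from which whole reads were recovered for 23287 of 23889 genes (97.5%), within a relative tolerance of 5.2e-06. These reads gave the exact 95% Clopper-Pearson intervals. With 1 library per condition no test was run, and depth, at totals of 15136398 to 18443639 reads on genes per library as the steps give them, limits only the counting error. Groups were taken from the GEO labels.

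Gene types and exon overlaps came from GENCODE v44 lifted to GRCh37, used for no coordinate, and coordinates and promoters from RefSeq GRCh38.p14. Of the genes compared, 11943 had a gene type, 11053 a RefSeq match and 8457 a promoter. Named genes were the 15 protein-coding genes with the largest difference in each direction at a mean of at least 5 FPKM, the 3 largest among other types, the 5 with the largest difference in FPKM, the construct genes, SPI1, CEBPB and RHOU, called members of the gene lists described, the 5 largest set-aside genes in each direction, and the 3 genes on either side of each limit. Other genes were named after their values were seen. The members and the 49 gene lists were chosen with earlier results of these data known. Scripts were tested on simulated data. Python 3.11.15, numpy 2.4.6, pandas 2.3.3, scipy 1.17.1 and matplotlib 3.10.9 were used.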

Additional observations from a re-analysis of the deposited data

Results flagged for a closer look

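Over all called genes, 37 higher and 14 lower genes changed past 2-fold in opposite directions in the lines from 0 to 48 h. Of these, 4 had a mean of at least 5 FPKM and are described here. The difference between the changes was not tested. For MT-TF, a mitochondrial tRNA gene, the log2 change was -2.50 in the ETO2-GLIS2 line, from 7 to 1 reads, and 3.26 in the empty vector line, from 2 to 19 reads. For LSM12P1, a pseudogene and the only one of the 4 with over 100 reads in every library of this comparison, it was 1.31, from 143 to 316 reads, against -1.37, from 332 to 121 reads. For SNORD62B, a small nucleolar RNA, it was 2.70, from 3 to 18 reads, against -2.05, from 18 to 4 reads. For MIR4740, a microRNA precursor, it was 1.15, from 5 to 10 reads, against -1.20, from 5 to 2 reads.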

How the results depend on the processing

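The 325 higher and 203 lower genes stayed within 1.5 times these counts with a pseudocount of 0.01, under both rescalings, with no genes set aside, with a 1.5-fold limit at 0 h, and, in a setting chosen after seeing the data, without genes of exon length under 300 bases. The counts moved to 202 and 134 with a pseudocount of 1, to 57 and 47 with a mean of at least 5 FPKM, to 1965 and 1592 with no filter, to 112 and 82 with a 3-fold limit and to 904 and 616 with a 1.5-fold limit. With the 0 h difference subtracted they were 584 and 469. Where the counting interval had to lie wholly past 2-fold they were 61 and 31, and where the 12 h pair had to be past 2-fold as well they were 51 and 62. Among protein-coding genes, a setting chosen after seeing the data, they were 112 and 55. These settings change which genes are counted by construction. All 65 named called genes had the same direction in the 5 settings run for single genes, 51 of them stayed past 2-fold with a pseudocount of 1, and 39 with the 0 h difference subtracted. The share of calls that were higher was 61.6% in the main setting, and 62.2% and 66.3% under the rescalings. It was 54.8% with a mean of at least 5 FPKM and 55.5% with the 0 h difference subtracted. Where the 12 h pair had to pass 2-fold as well it was 45.1%. No replicate could be left out, since each condition is 1 library. No paired analysis was possible because each condition has 1 library and the result comes from no test.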

Other observations

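A few receptors of mature monocytes lay below the filter of 1 FPKM on the mean and differed in size as much as the leading genes. They were picked after their values were seen. Several other monocyte and macrophage surface genes below the filter were flat, lower or at 0. LILRB1, an inhibitory receptor, had 77 and 78 reads at 48 h, TREM1, an activating receptor, had 0 and 4 reads, and the macrophage receptor genes CD163, MRC1 and MSR1 were at 0 in both. CD86, a costimulatory ligand for T cells, had 0.205, 0.439 and 1.67 FPKM at 0, 12 and 48 h in the ETO2-GLIS2 line and 0.0179, 0 and 0.0756 FPKM in the empty vector line. At 48 h that was 94 against 4 reads, a log2 difference of 3.33 (3.06 to 6.37). Its difference was 1.37 at 0 h, so it had already passed the 2-fold limit used to set genes aside. FPR1, the receptor for bacterial formyl peptides, had 0.0418, 0.302 and 1.27 FPKM against 0.0474, 0.0764 and 0.1 FPKM, and was the one of these that was even at 0 h. Its difference at 48 h was 2.78 (2.23 to 5.59), from 54 and 4 reads. LILRB3, an inhibitory immunoglobulin-like receptor, had 78 and 6 reads at 48 h, a difference of 2.75 (2.43 to 5.1) that was 0.88 at 0 h. Of the exon bases of LILRB3 44.5% overlap another gene on its strand.

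Progenitor genes at the same low level did not share one direction. KIT, the stem cell factor receptor, had 0.549 FPKM with ETO2-GLIS2 and 0.14 FPKM with the empty vector at 48 h, a difference of 1.44 (1.04 to 3.02). GATA2, a factor of blood stem cells and the megakaryocytic lineage, had 0.26 and 0.685 FPKM, a difference of -1.12 (-2.25 to -0.6).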
